A study of Homo sapiens with 8 samples.

Results

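The genes described here are 10 genes whose products fuse, divide or remodel mitochondria: OPA1, MFN1, MFN2, OMA1, YME1L1, DNM1L, FIS1, MFF, MIEF1 and MIEF2, of 22439 genes that could be named on the array. They were chosen by name and function, with earlier results of these data known. Every probe of each gene was used, which gave 18 probes. A431 cells, a human cutaneous squamous cell carcinoma line, were transfected with miR-634 or with a nontargeting control, miR-NC, at 10 nM and lysed after 24 h. RNA bound to AGO2 was collected by immunoprecipitation (RIP) and hybridized beside input RNA on one-color Agilent arrays. This gave 4 groups of 2 arrays, input and RIP for each kind of cells. In the labels the input arrays carry a normal rabbit IgG antibody, whereas the study's methods call them total RNA, and they are treated here as input. Nothing in the sources used here says whether the duplicates were separate transfections, so every p-value measures only the spread between these arrays, which may be technical. All groups came from this 1 line, and no untransfected cells were on the arrays.

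Mitochondria form a network that is joined and divided all the time. On the outer membrane, the GTPases MFN1 and MFN2 tether neighboring mitochondria and fuse their outer membranes, and in the inner membrane the GTPase OPA1 fuses the inner membranes and keeps the cristae tight. OPA1 is cut from long to short forms by 2 inner membrane proteases, OMA1 and YME1L1, and OMA1 acts mainly under stress. Division is carried out by DNM1L (also known as DRP1), a cytosolic GTPase that is drawn to the outer membrane by MFF, MIEF1 (MiD51) and MIEF2 (MiD49), and FIS1 is another outer membrane protein of this pathway. Loss of OPA1 fragments the network and makes cells more prone to release cytochrome c. A microRNA guides AGO2 to transcripts that pair with its seed, which lowers the translation or the level of those transcripts. The comparison of RIP with input therefore asks which transcripts are held by AGO2, and the study asked how this differs once miR-634 is added.

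The sequence of the mature miR-634, as given by RefSeq for GRCh38.p14, is shown because its seed is the part that pairs with transcripts. Its 22 bases lie on the plus strand at chr17:66787132-66787153, within the span of the gene PRKCA. The capitals mark the seed, bases 2 to 8.
miR-634: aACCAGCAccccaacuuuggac
A DNA copy of a transcript that pairs with all 7 seed bases holds TGCTGGT. Transcript and probe sequences were not used here, so the position of such a stretch in the members is not given.

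Each level below is the log2 intensity of a probe after background subtraction, minus the 75th percentile of its array, so that 0 is the brightness of the array's 75th percentile probe and a step of 1 is a doubling. The levels of different probes cannot be set against each other. A probe was tested when it was well above background on all 8 arrays, as were 16808 of 58201 probes (28.9%) and 17 of the 18 member probes, which covered all 10 genes. For a gene with several probes, letters are given in the order of mean level, with probe a the brightest. The share of spots well above background was between 45.6% and 45.8% for input. For RIP it was lower, at 33.6% and 34.5% with miR-NC and at 40.0% on both arrays with miR-634. The median SD between the 2 arrays of a group was between 0.038 and 0.066. All 8 arrays lay on 1 slide, where row 1 held input and row 2 RIP, columns 1 and 2 held miR-NC and columns 3 and 4 held miR-634, so slide position and group cannot be told apart. All 7 squamous marker genes were well above background on all 8 arrays, whereas 0 of 5 markers of blood, fibroblasts, endothelium and melanocytes were. Of these 5, PTPRC and COL1A1 each had a probe well above background on 4 arrays, and the other 3 had none on any array.

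OPA1 was read by 2 probes, which differed. Probe a (A_23_P211797, designed on NM_130837) had input levels of -1.43 and -1.46 in miR-NC cells and of -2.22 and -2.16 in miR-634 cells. Its RIP levels were -2.57 and -2.32 in miR-NC cells and -2.30 and -1.97 in miR-634 cells. Both input arrays of miR-634 cells were thus below both of miR-NC cells, and both RIP arrays were above, by a margin smaller than the spread between the duplicates. The input change was -0.74 on the log2 scale (standard error 0.13, limma adjusted p = 0.0126), which is 0.598-fold. This fall was past the threshold with all 8 arrays and kept its size when any 1 array was left out, between -0.77 and -0.71, but leaving out any 1 of the 4 input arrays raised the adjusted p to between 0.0673 and 0.0792. In bulk RNA, fewer cells with a transcript and less of it per cell cannot be told apart. The RIP level differed by 0.31 (standard error 0.13, 95% interval 0.01 to 0.62), which did not pass the test (adjusted p = 0.0594). It passed as higher in 9 of 19 other settings, among them the authors' processed values at 0.49 (limma adjusted p = 0.0151). Spike-in scaling gave 1.18, where the median RIP change of all probes was 0.63. In that fit the member probes shared a standard error of 0.21, so no p-value is given for it. The RIP change was 0.44 without miR-NC RIP replicate 2 and 0.48 without miR-634 RIP replicate 1.

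The enrichment of OPA1 probe a, the log2 of RIP over input, averaged -1.0 ± 0.19 (SD, n = 2) with miR-NC, against 0.05 ± 0.20 (SD, n = 2) with miR-634. In control cells the probe was therefore 0.499 times as bright in RIP as in input, relative to the other probes of each array. In miR-634 cells, RIP and input did not differ past the threshold (95% interval -0.25 to 0.36). For every enrichment given with an SD, here and below, RIP and input arrays were matched by replicate number. The replicate numbers were not shown to pair the arrays, so these SDs depend on that match. The fold change of enrichment, which is the enrichment in miR-634 cells over that in miR-NC cells, was 2.08 (log2 1.06, standard error 0.18, limma adjusted p = 0.00220). It lay between 0.89 and 1.22 on the log2 scale with any 1 array left out, each with an adjusted p of 0.0113 or below. Its parts were -0.74 in input and 0.31 in RIP on this scale, and -0.98 and 1.18 with spike-in scaling, so which of them was the larger depended on the scaling.

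Probe b of OPA1 (A_33_P3346498, designed on NM_130831) had input levels of -3.61 and -3.77 in miR-NC cells and of -3.92 and -3.75 in miR-634 cells. Its RIP levels were -3.67 and -3.09 in miR-NC cells and -3.77 and -3.58 in miR-634 cells. The groups overlapped in input, in RIP and in enrichment, and the spread between the miR-NC RIP duplicates was the widest of any group of this probe. Its fold change of enrichment was -0.14 on the log2 scale, with a 95% interval of -0.78 to 0.50 (limma adjusted p = 0.656), and it was 0.96 when the arrays were scaled on their spike-in controls. The input change of probe b was -0.15 (95% interval -0.60 to 0.30). The direct test, on the difference between the 2 probes within each array, gave 1.20 for the fold change of enrichment (standard error 0.18, limma adjusted p = 0.00387). That these 2 probes differ was known from these arrays before the test was chosen, so its result is not independent evidence. For RIP it gave 0.61 (adjusted p = 0.0114), which became 0.53 (adjusted p = 0.0580) without miR-634 RIP replicate 2. For input it gave -0.59, which did not pass the threshold (adjusted p = 0.0813), but did so with normexp and quantile normalization (-0.52, adjusted p = 0.0253) and without either miR-NC RIP array (adjusted p = 0.0392).

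**Figure D1:**
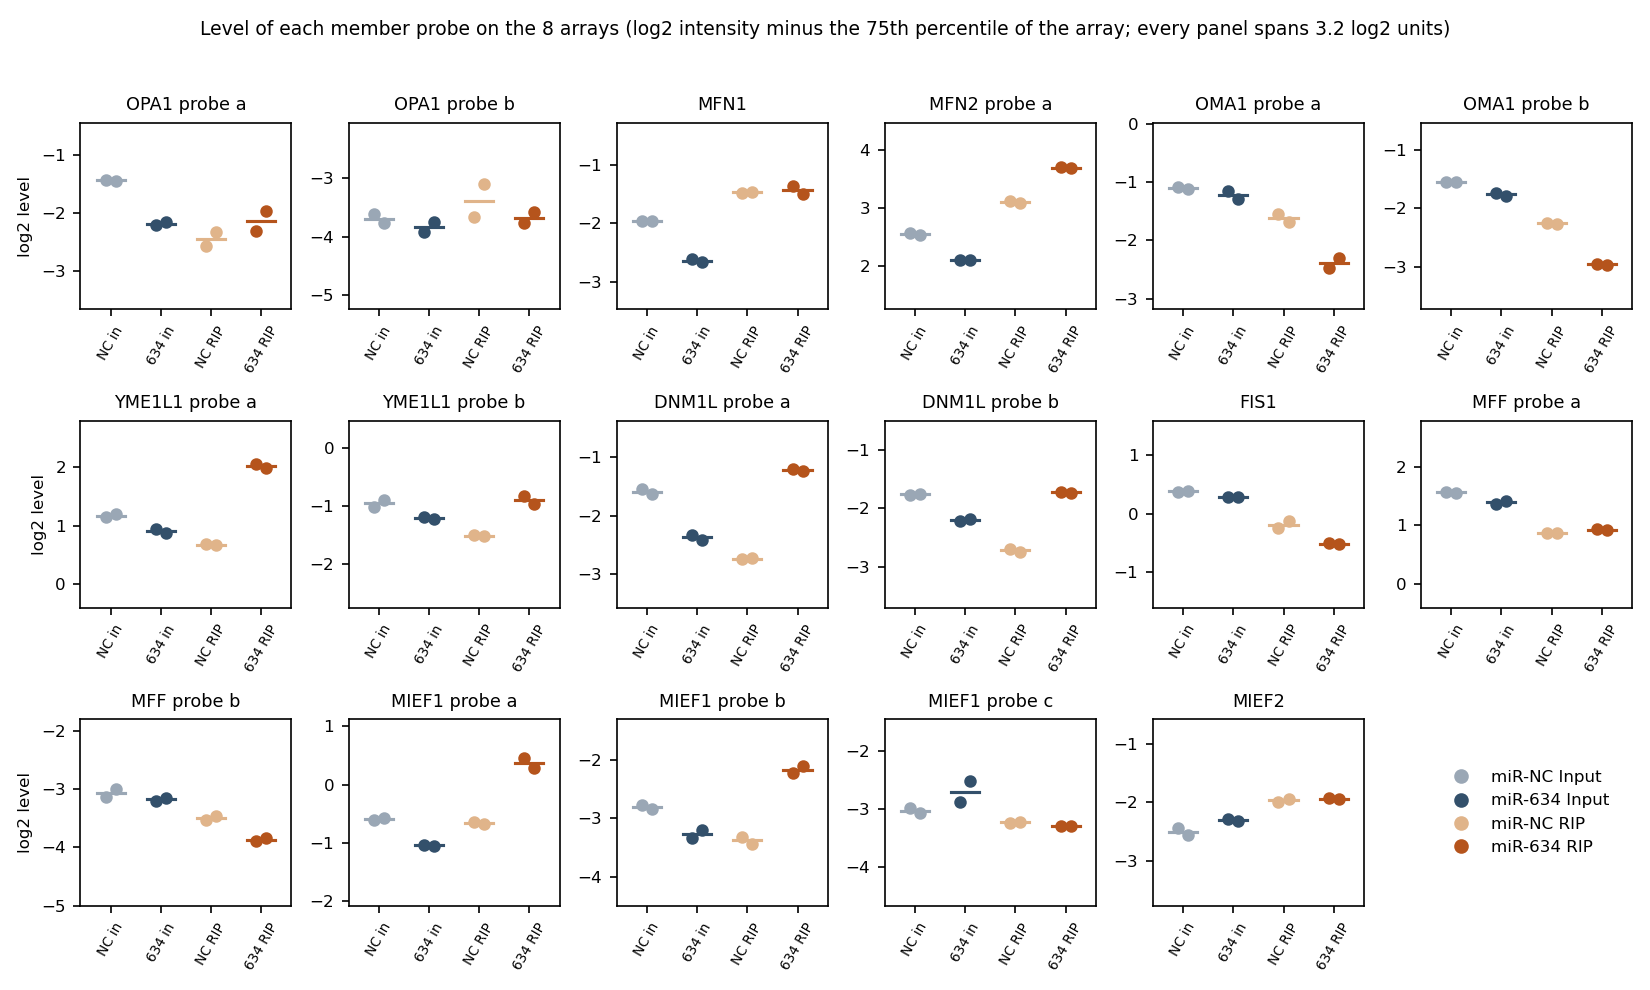
Log2 level of each of the 17 tested member probes on the 8 arrays, relative to the array's 75th percentile, with 1 point per array, a line at the mean of the 2 arrays of a group and the same span in every panel. The miR-634 input points lie below the miR-NC input points for all but OPA1 probe b, MIEF1 probe c and MIEF2, and for OPA1 probe b the groups overlap.

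The mitofusins both gained enrichment. MFN1 (A_23_P80648), which fuses outer membranes, had input levels of -1.96 and -1.97 in miR-NC cells and of -2.61 and -2.67 in miR-634 cells. Its RIP levels were -1.47 and -1.46 in miR-NC cells and -1.36 and -1.49 in miR-634 cells. The input groups stood far apart, whereas the RIP groups overlapped. Accordingly, MFN1 fell in input by 0.67 on the log2 scale (adjusted p = 0.00162), its RIP level differed by 0.04 (95% interval -0.10 to 0.18, but 0.91 and called with spike-in scaling), and its fold change of enrichment was 1.64 (adjusted p = 0.000396). Its enrichment was 0.50 ± 0.01 (SD, n = 2) with miR-NC, against 1.21 ± 0.05 (SD, n = 2) with miR-634.

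MFN2, which fuses outer membranes and tethers mitochondria to other organelles, was read well by probe a (A_23_P126135). Its input levels were 2.57 and 2.53 in miR-NC cells and 2.11 and 2.10 in miR-634 cells, and its RIP levels were 3.12 and 3.09 in miR-NC cells and 3.70 and 3.68 in miR-634 cells. It was lower in input and higher in RIP on both miR-634 arrays, and no groups overlapped. The input change was -0.44 (adjusted p = 0.00251), the RIP change was 0.58 (adjusted p = 4.3e-05) and the fold change of enrichment was 2.04 (adjusted p = 2.8e-05). Probe b of MFN2 (A_33_P3320277) was well above background on 5 of 8 arrays only and was not tested. It was well above background on 0 of 2 miR-NC RIP arrays and 2 of 2 miR-634 RIP arrays, where it was at least 1.17-fold brighter. This bound is the mean level on the bright arrays over that of the dim arrays, with each dim array set to its lowest probe well above background where the probe itself was dimmer.

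The 2 proteases that cut OPA1 went opposite ways in enrichment relative to the other probes of each array, but not with spike-in scaling. YME1L1 is a constitutive protease that faces the intermembrane space. Its probe a (A_23_P104201) had input levels of 1.15 and 1.20 in miR-NC cells and of 0.94 and 0.88 in miR-634 cells. Its RIP levels were 0.69 and 0.67 in miR-NC cells and 2.06 and 1.98 in miR-634 cells. The RIP groups stood apart by many times their spread, and RIP rose by a log2 value of 1.34 (standard error 0.05) at an adjusted p of 2.5e-06. Relative to the other probes of each array, RIP over input was -0.49 ± 0.05 (SD, n = 2) with miR-NC and 1.11 ± 0.01 (SD, n = 2) with miR-634, although the latter was -0.37 with spike-in scaling. The fold change of enrichment was 3.04 for probe a (adjusted p = 8.5e-06) and 1.82 for probe b (A_24_P167052, adjusted p = 0.000325). Both YME1L1 probes were called lower in input, each by 0.26 on the log2 scale, with adjusted p of 0.0217 and 0.0467, and leaving out any 1 of the 4 input arrays took the call of probe a away, with values between -0.29 and -0.23. The call of probe b was lost in 6 of 8 fits that left out 1 array, with values between -0.32 and -0.20.

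OMA1 is the stress-activated OPA1 protease. Probe a (A_23_P138137) had RIP levels of -1.54 and -1.69 in miR-NC cells and of -2.48 and -2.30 in miR-634 cells, and input levels of -1.09 and -1.13 in miR-NC cells and of -1.16 and -1.29 in miR-634 cells. Probe b (A_23_P138139) had RIP levels of -2.25 and -2.27 in miR-NC cells and of -2.95 and -2.97 in miR-634 cells. Both probes were below the miR-NC values on both miR-634 RIP arrays, with no overlap. The RIP level fell by 0.77 for probe a (adjusted p = 0.000254) and by 0.70 for probe b (adjusted p = 2.3e-05) on this scale. The fold change of enrichment was 0.636 for probe a (adjusted p = 0.00353) and 0.715 for probe b (adjusted p = 0.000855), where 43.5% of all tested probes were called lower. On the spike-in scale the log2 values of these fold changes turned to 0.45 and 0.62 and the RIP changes to 0.10 and 0.17. In input, probe b was called lower at -0.21 (adjusted p = 0.0274, lost without any 1 of the 4 input arrays) and probe a was not called (-0.12, 95% interval -0.33 to 0.10). The probes of OMA1 did not differ past the threshold in fold change of enrichment (-0.17, adjusted p = 0.431).

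DNM1L, the GTPase that divides mitochondria, had the largest fold change of enrichment among the 17 member probes. Probe a (A_24_P743907, designed on NM_001278464) had input levels of -1.55 and -1.63 in miR-NC cells and of -2.33 and -2.41 in miR-634 cells. Its RIP levels were -2.74 and -2.73 in miR-NC cells and -1.21 and -1.23 in miR-634 cells. Input was lower and RIP was higher on every miR-634 array, each by far more than the spread. The RIP change was 1.52 (standard error 0.05, adjusted p = 1.6e-06) and the input change was -0.78 (standard error 0.05, adjusted p = 0.000916), and the latter was called in all 19 other settings run. The enrichment went from -1.15 ± 0.06 (SD, n = 2) with miR-NC to 1.15 ± 0.04 (SD, n = 2) with miR-634, which is 4.92-fold (log2 2.30, adjusted p = 2.5e-06) at the 97.7th percentile of all tested probes. Probe b (A_23_P204324, designed on NM_012062) changed the same way, by -0.44 in input (adjusted p = 0.00273), 0.99 in RIP (adjusted p = 4.6e-06) and 2.69-fold in enrichment (adjusted p = 7.5e-06).

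Among the outer membrane proteins that recruit DNM1L, MIEF1 had 3 probes, of which 2 rose in enrichment and 1 was not called. Probe a (A_23_P103131) had RIP levels of -0.65 and -0.68 in miR-NC cells and of 0.45 and 0.29 in miR-634 cells, and input levels of -0.61 and -0.57 in miR-NC cells and of -1.04 and -1.05 in miR-634 cells. Probe b (A_23_P109547) had RIP levels of -3.32 and -3.43 in miR-NC cells and of -2.22 and -2.11 in miR-634 cells. Both were higher in RIP on both miR-634 arrays, with fold changes of enrichment of 2.81 (adjusted p = 2.5e-05) and 3.18 (adjusted p = 3.1e-05). Probe c (A_33_P3238074) had RIP levels of -3.23 on both miR-NC arrays and -3.29 on both miR-634 arrays, and input levels of -2.99 and -3.06 in miR-NC cells and of -2.88 and -2.52 in miR-634 cells. Its fold change of enrichment was 0.766 (log2 -0.38, 95% interval -0.76 to -0.01, adjusted p = 0.0658), but it was -0.56 (adjusted p = 0.00298) without miR-634 input replicate 1, and it was 0.72 on the spike-in scale. The difference between probes a and c was 1.88 for the fold change of enrichment (adjusted p = 0.000650), whereas probes a and b did not differ past the threshold (-0.18, adjusted p = 0.488, and 0.11 with normexp and quantile normalization).

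The other recruiting proteins had values closer to 0. FIS1 (A_24_P277955) had RIP levels of -0.25 and -0.13 in miR-NC cells and of -0.50 and -0.52 in miR-634 cells, and input levels of 0.37 and 0.39 in miR-NC cells and of 0.28 on both miR-634 arrays. Its fold change of enrichment was 0.859 (log2 -0.22, adjusted p = 0.0427), which became 0.88 on the log2 scale with spike-in scaling, 0.04 once the median of all probes was subtracted, and was no longer called in 7 of the 8 fits that left out 1 array. MFF, a main receptor of DNM1L, had 2 probes of opposite sign, with fold changes of enrichment of 1.17 for probe a (A_23_P405148, adjusted p = 0.0180) and 0.836 for probe b (A_23_P92994, adjusted p = 0.0442). The call of probe a was lost in 3 of 8 and that of probe b in 6 of 8 fits that left out 1 array, and the value of probe b turned to 0.84 on the spike-in scale. MIEF2 (A_23_P501372) had RIP levels of -1.99 and -1.94 in miR-NC cells and of -1.93 and -1.95 in miR-634 cells, which overlapped, and its fold change of enrichment was not called (log2 -0.17, 95% interval -0.37 to 0.03, adjusted p = 0.106, and 0.93 on the spike-in scale).

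**Figure D2:**
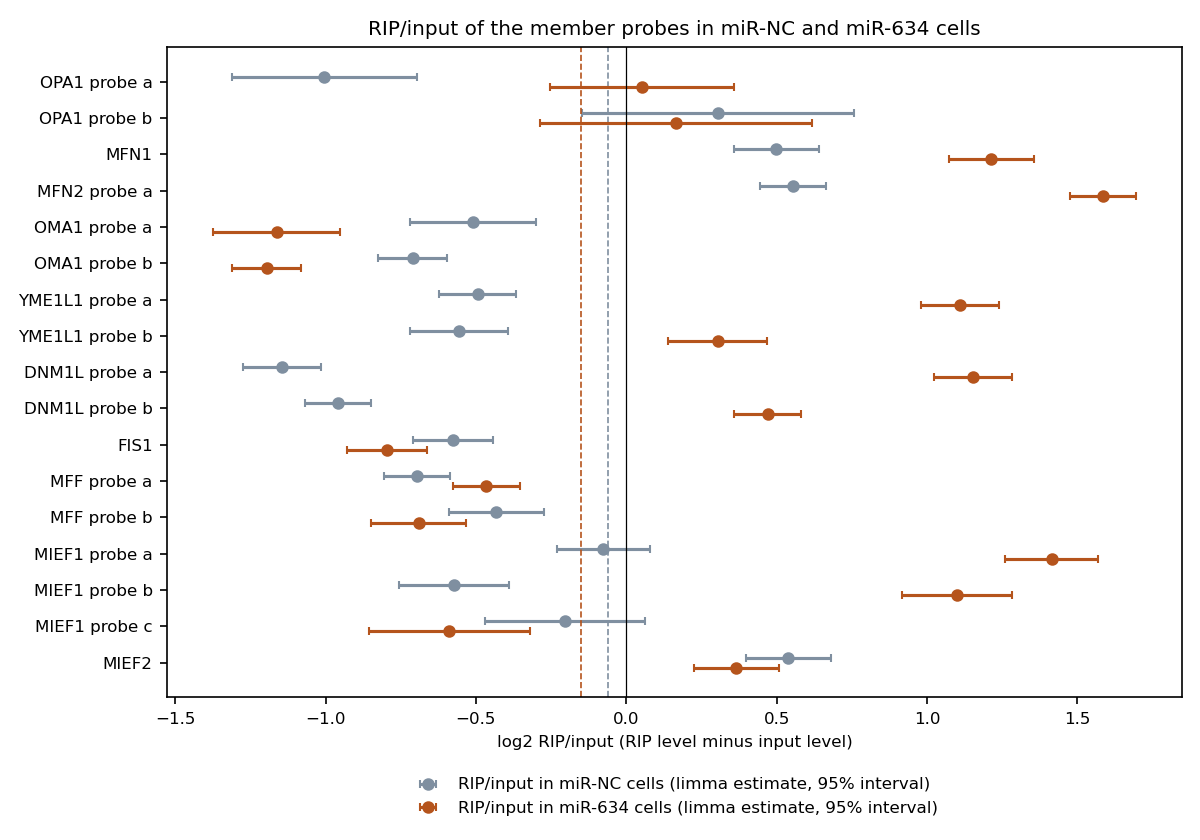
Enrichment (log2 RIP/input, x axis) of each tested member probe in miR-NC cells (grey) and miR-634 cells (orange), as limma estimates with 95% intervals, with dashed lines at the median of all tested probes in each kind of cells (-0.06 and -0.15). DNM1L probe a went from -1.15 to 1.15 and YME1L1 probe a from -0.49 to 1.11, whereas both OMA1 probes were lower in miR-634 cells on this scale.

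Across the 17 member probes, the fold change of enrichment was called higher for 10 probes of 7 genes (OPA1, MFN1, MFN2, YME1L1, DNM1L, MFF and MIEF1), where 24.9% of all tested probes were called higher. It was called lower for 4 probes of 3 genes (OMA1, FIS1 and MFF), where 43.5% of all tested probes were. The median was 0.72 on the log2 scale over the member probes and -0.26 over all probes, and 14 of 17 member probes lay above the latter. These calls are relative to the other probes on each array. With the arrays scaled on 8 spike-in control probes, the median of all probes moved from -0.26 to 0.84. Then 0 of the 17 member probes were called lower, where 287 of the 16808 tested probes were. On that scale 15 member probes were called higher, where 10664 of all tested probes were. The 75th percentile intensity differed in the same way, with 714 and 670 for RIP of miR-NC cells and 1375 and 1329 for RIP of miR-634 cells, and its part in the fold changes was not tested otherwise. With the median of all probes subtracted, 10 member probes stayed called higher, where 5554 of the 16808 tested probes were. By that centering 2, both of OMA1, were called lower at -0.39 and -0.22, where 4653 of all tested probes were. MFN1, MFN2 probe a, both YME1L1 probes, both DNM1L probes and MIEF1 probes a and b kept their calls in every setting run.

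The study set its cutoff by XIAP, an inhibitor of apoptosis used as the positive control. The brighter of the 2 XIAP probes tested rose 1.37-fold in enrichment (log2 0.45, adjusted p = 0.00135). Of the 17 member probes, 9 probes of 6 genes (OPA1 probe a, MFN1, MFN2, YME1L1, DNM1L and MIEF1) lay above it, where 21.8% of all tested probes did. The dimmer XIAP probe had a fold change of enrichment of 1.73, which 8 member probes of 5 genes exceeded, without MFN1, where 15.1% of all tested probes did. This second count was added after the data were seen, and the study's own XIAP value was not used.

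In input, 11 of 17 member probes of 8 genes were called lower in miR-634 cells, where 9.83% of all tested probes were. The median input change was -0.26 over the member probes and -0.02 over all probes. The falls were -0.78 and -0.44 for the probes of DNM1L, -0.74 for OPA1 probe a, -0.67 for MFN1, -0.46 for both MIEF1 probes a and b and -0.44 for MFN2. Smaller falls of 0.26, 0.26, 0.21 and 0.17 on the log2 scale were called for the YME1L1 probes, OMA1 probe b and MFF probe a (adjusted p = 0.0460), and the MFF call was lost in each of the 8 fits that left out 1 array. limma called 0 member probes higher, where 8.42% of all tested probes were, and 2 (MIEF1 probe c at 0.32 and MIEF2 at 0.20) had an unadjusted p under 0.05. Without any 1 of the 4 input arrays, which leaves 1 array in a group, fewer member probes were called lower. Fewer of all tested probes were called lower in those fits too. Without any 1 RIP array the member count fell less.

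In RIP, 7 of 17 member probes of 4 genes were called higher in miR-634 cells, where 27.3% of all tested probes were, and 4 of 3 genes were called lower, where 48.6% were. Those higher were MFN2 probe a and the probes of YME1L1 and DNM1L with MIEF1 probes a and b, from 0.58 to 1.52 on the log2 scale. Those lower were both OMA1 probes, FIS1 at -0.32 and MFF probe b at -0.37, all of which were above 0 on the spike-in scale. The same 7 probes that rose in RIP were called lower in input, so they went opposite ways in the 2 kinds of RNA, and this held for 5.73% of all tested probes. Without any 1 of the 4 input arrays, which leaves 1 array in a group, fewer of the 7 passed in both, a count made after the data were seen. MFN2 probe a and both DNM1L probes passed in each of these fits. Fewer of all tested probes were called lower in input in these fits too, and the share of all tested probes that went opposite ways was not counted in them.

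**Figure D3:**
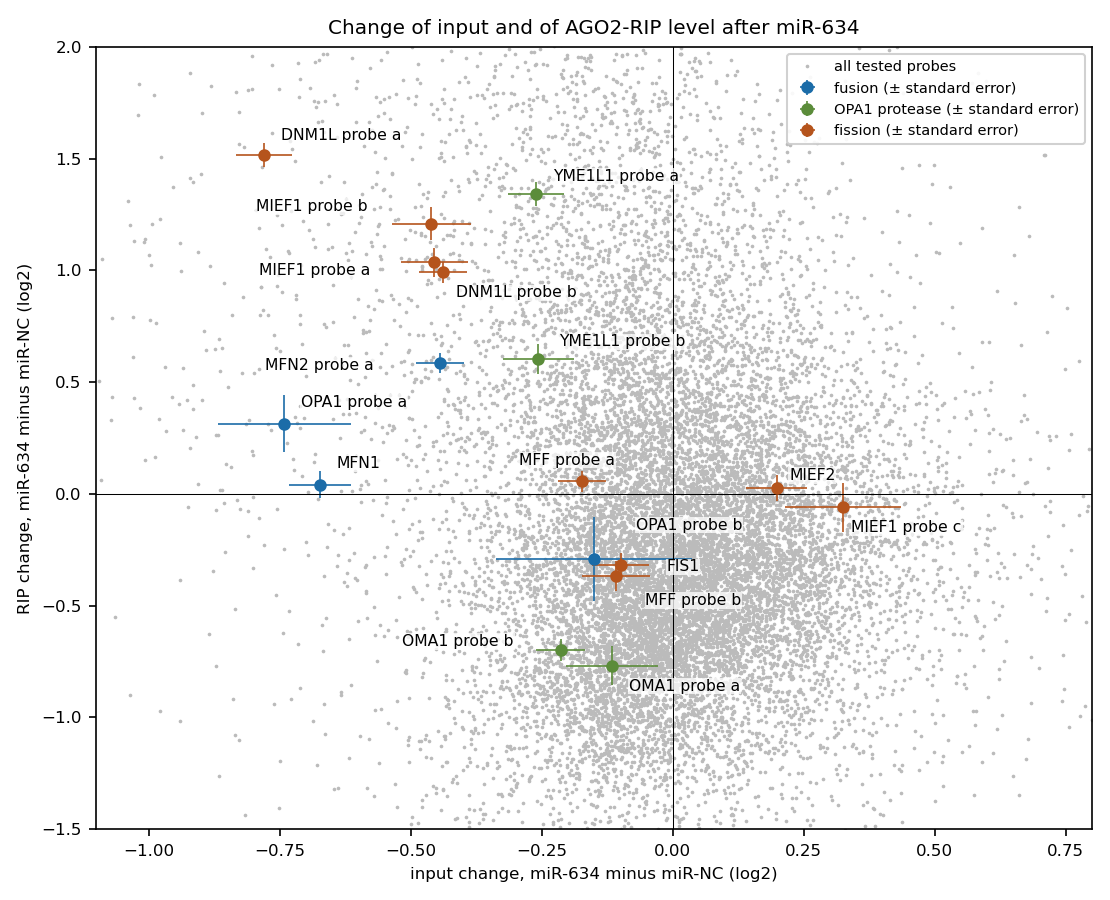
Input change (x axis) against RIP change (y axis), miR-634 minus miR-NC on the log2 scale, for the 17 member probes with standard errors and for all tested probes in grey, of which 862 lie outside the axes. The probes of DNM1L, YME1L1 and MIEF1 (a and b) with MFN2 probe a lie at upper left, lower in input and higher in RIP, whereas OPA1 probe a and MFN1 lie at far left, closer to 0 in RIP on this scale.

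The enrichment in each kind of cell shows where the members started. In miR-NC cells, 11 of 17 member probes of 7 genes were lower in RIP than in input, where 41.1% of all tested probes were, and 3 (MFN1, MFN2 and MIEF2, at 0.50, 0.56 and 0.54) were higher, where 36.3% were. In miR-634 cells, 9 probes of 6 genes were higher, where 35.8% of all tested probes were, and 6 probes of 4 genes were lower, where 46.7% were. YME1L1 probes a and b, DNM1L probes a and b and MIEF1 probe b passed the test as lower in miR-NC cells and as higher in miR-634 cells. The highest enrichment in miR-634 cells was that of MFN2 at 1.58, followed by MIEF1 probe a at 1.41, MFN1 at 1.21 and DNM1L probe a at 1.15. On the spike-in scale all member probes were below 0 in miR-NC cells and MFN2 was the only one above 0 in miR-634 cells.

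Probes of one gene can read different transcript ends or isoforms. Among 2642 pairs of probes of 2224 genes, 22.9% differed in fold change of enrichment at an adjusted p under 0.05, as did 5 of the 7 pairs of member probes. The OPA1 pair among them was known to differ before the test. Apart from OPA1 and MIEF1, these were YME1L1 (0.74, adjusted p = 0.00206), DNM1L (0.87, adjusted p = 0.00156) and MFF (0.49, adjusted p = 0.0259, lost in 4 of 8 fits that left out 1 array). In YME1L1 and DNM1L both probes rose and differed in size only, while those of MFF had opposite signs. For input, 1.74% of all pairs differed, and 1 of 7 member pairs did, MIEF1 probes a and c (-0.78, adjusted p = 0.0481), which was lost in 6 of 8 fits that left out 1 array. For RIP, 32.2% of all pairs and 5 of 7 member pairs differed. Which part of a transcript each probe reads was not analyzed here. On the 2 miR-NC RIP arrays, OPA1 probe b had intensities of 56 and 78. MIEF1 probe c had 76 and 72, and MFF probe b had 61 on both. MIEF1 probe b, which did not differ from probe a past the threshold, had 72 and 62. The lowest probes well above background on these arrays had 21 and 17. Whether weak signal had a part in the differences was not tested.

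**Figure D4:**
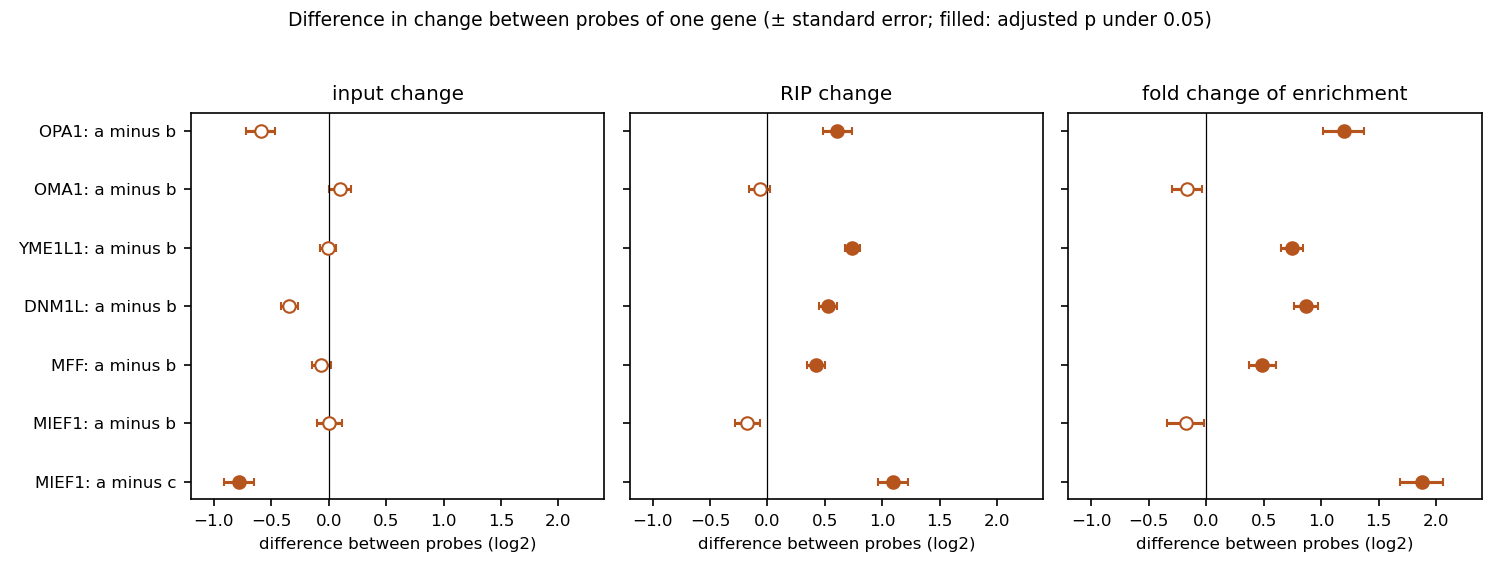
Difference between the probes of a gene (brighter minus dimmer, log2, with standard errors) in input change, RIP change and fold change of enrichment for the 7 pairs of member probes, with filled points where limma's adjusted p was under 0.05. The fold changes of enrichment of OPA1 and of MIEF1 probes a and c differed most, by 1.20 and 1.88.

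A list of 29 regulators of fusion, fission and mitochondrial quality control had 25 genes with a tested probe, and of their 32 probes limma called 8 higher and 11 lower in fold change of enrichment, where 24.9% and 43.5% of all tested probes were. Their median was -0.06, against -0.26 for all probes. The fusion side had 4 probes higher and 4 lower of 14, and the fission side 3 higher and 7 lower of 17. The largest rises were those of MTFR1, a fission regulator (2.71), of AFG3L2, a matrix-facing protease of the inner membrane (2.28), and of PINK1, the kinase that marks damaged mitochondria (2.13), and smaller ones were those of MTFR1L (1.26), the dynamin DNM2 (1.12) and the phospholipase PLD6 (1.06). The largest fall was that of ROMO1, a small inner membrane protein (-2.13). AFG3L2 and MTFR1 belong to a list that the study chose on these arrays, so their direction is not independent evidence. In input, 5 of the 32 probes were called higher and 1 lower, that of MTFR1 (-0.88, adjusted p = 0.00147), where 8.42% and 9.83% of all tested probes were, beside the 11 of 17 called lower among the member probes. No test was made between the lists.

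The probes whose 8 levels followed OPA1 probe a most closely, by Pearson's r over the 8 arrays, were those of DENND11 (0.973), CCSER2 (0.959) and COX20 (0.951). For OPA1 probe b they were BASP1P1 (0.959), C20orf141 (0.934) and LINC00494 (0.927). The 8 arrays share their scaling and their group structure, so these values only describe likeness.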

How the data were processed

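The data were 8 one-color arrays, 2 for each combination of transfection (miR-NC or miR-634) and RNA (input or RIP). The authors deposited the intensity of every spot from Agilent Feature Extraction (9.1 per the labels, 12.0.1.1 per the file headers), with background subtracted and no normalization between arrays. A second deposited table holds GeneSpring log2 values. These matched the log2 intensity once it was scaled on the 75th percentile of all probes and centered on each probe's median, and they served only as an alternative.

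Control and outlier spots were left out (57 to 131 outliers per array, 0 saturated spots), replicate spots were averaged per probe, and log2 values were expressed relative to each array's 75th percentile among the 16808 probes above background on every array. The array design was annotated on hg19, and its probes carry accessions only. RefSeq accessions were held by 33080 probes, and RefSeq's table for GRCh38.p14 gave a symbol for 31104 of them.

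The fold change of enrichment, the input change, the RIP change and RIP/input in each kind of cells were contrasts of 1 fit per probe in limma 3.58.1 under R 4.3.3, where lmFit estimated 4 group means and eBayes the spread. The p-values computed here were adjusted by Benjamini-Hochberg over all tested probes, and calls were made at an adjusted p under 0.05. Differences between probes of a gene were fitted on within-array differences. Precision is limited by the small number of arrays. The scripts were tested on simulated data.

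Each member was named with all its probes. Of the other pathway genes, the 8 called ones with the largest absolute fold change of enrichment were named, except 1 that is not reported here, and for OPA1 the 3 probes with the highest Pearson's r. The members and lists were chosen with earlier results of these data known. Alternatives were normexp (offset 50, on the median signal) with quantile normalization, quantile normalization, the percentile over all probes, spike-in scaling, the authors' processed values, 2 other filters, 1 value per gene (the brightest probe or the probes' mean), centering, an intensity trend, each array left out, a replicate block, the XIAP cutoff and the methods' t-test. No slide block could be fitted on 1 slide. Python 3.11.15 with pandas 2.3.3, numpy 2.4.6 and matplotlib 3.10.9 read the files and drew the plots.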

Additional observations from a re-analysis of the deposited data

Results flagged for a closer look

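For 14 of the 17 member probes, RIP/input differed between miR-634 and miR-NC cells by limma's test of the difference itself, at an adjusted p under 0.05, where 24.9% of all tested probes were called higher and 43.5% lower. On the log2 scale it was higher in miR-634 cells by 1.06 for OPA1 probe a, 0.72 for MFN1, 1.03 for MFN2 probe a, 1.60 and 0.86 for YME1L1 probes a and b, 2.30 and 1.43 for DNM1L probes a and b, 0.23 for MFF probe a, and 1.49 and 1.67 for MIEF1 probes a and b. It was lower, at -0.65 and -0.48 for OMA1 probes a and b, -0.22 for FIS1 and -0.26 for MFF probe b, and each of these 4 values was above 0 with spike-in scaling. Groups of 2 arrays are too small for a search for single outlying arrays.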

How the results depend on the processing

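Scaling on the 8 spike-in probes turned many directions. The fold change of enrichment then had 10664 probes called higher and 287 lower, with 0 member probes lower. It turned above 0 for OPA1 probe b (0.96), OMA1 probes a and b (0.45 and 0.62), FIS1 (0.88), MFF probe b (0.84), MIEF1 probe c (0.72) and MIEF2 (0.93). The RIP change had 10471 probes higher and 642 lower (15 and 0 member probes) and turned above 0 for OPA1 probe b (0.57), OMA1 probes a and b (0.10 and 0.17), FIS1 (0.54), MFF probe b (0.50) and MIEF1 probe c (0.80). For input, 24 probes were higher and 1147 lower, with 7 member probes lower, and MIEF2 was at -0.040. RIP/input had 78 probes higher and 16484 lower in miR-NC cells (0 and 17 member probes), and 934 and 14243 in miR-634 cells (0 and 11). It turned below 0 in miR-NC cells for OPA1 probe b (-2.28), MFN1 (-2.09), MFN2 (-2.03) and MIEF2 (-2.05), and in miR-634 cells for OPA1 probes a and b (-1.43 and -1.32), MFN1 (-0.27), YME1L1 probes a and b (-0.37 and -1.18), DNM1L probes a and b (-0.33 and -1.01), MIEF1 probes a and b (-0.069 and -0.38) and MIEF2 (-1.12). The cause was not tested.

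Member probes with a lower fold change of enrichment numbered 2 in place of 4 with normexp and quantile normalization, quantile normalization, the percentile over all probes, the authors' processed values, the filter on the input arrays, no filter, the brightest probe, the mean of the probes, and centering. Centering gave 4653 probes lower and put OPA1 probe b at 0.12, FIS1 at 0.042, MFF probe b at 0.0028 and MIEF2 at 0.089. Fits by gene tested fewer features. The fold change of enrichment then had 4730 genes lower by brightest probe and 4701 by mean, RIP had 5098 and 5085 lower and 4 members higher by either, with 2 members lower by brightest probe, RIP/input had 3676 and 3690 higher in miR-NC cells and 3961 and 3972 in miR-634 cells, with 6 and 3 members lower, and input had 1 member higher by either. By the mean, 5 members rose in enrichment, where 3081 of 10959 genes did, and MFF was at -0.014 in enrichment and -0.16 in RIP.

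Member probes lower in input numbered 7 with the percentile over all probes, the authors' processed values and the input filter, and 1 with no filter. All probes lower in input numbered 795, 806 and 963 with the first 3 and 212 with no filter, and those higher 661 with the input filter and 68 with none. By gene, 7 of 10 members were lower in input by brightest probe and 4 by mean, where 1329 and 1317 of 10959 genes were. With no filter, which tested more probes, 25298 were lower in fold change of enrichment, 31068 in RIP, and 32871 and 27584 were higher in RIP/input in miR-NC and miR-634 cells. MIEF1 probe c changed sign in RIP, to 0.15 with normexp, 0.048 with quantile normalization and 0.11 with the percentile over all probes and with the authors' values. With normexp, 2 member pairs differed in input, and MIEF1 probes a and b differed by 0.11 in fold change of enrichment and -0.15 in input.

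With any 1 array left out, the member probes called numbered 9 to 10 higher and 2 to 4 lower for the fold change of enrichment, 0 to 1 and 4 to 10 for input, 7 to 8 and 4 to 5 for RIP, and 4 to 5, 0 to 2 and 4 to 5 pairs for the 3 probe comparisons. All probes ranged from 320 to 1592 higher and 551 to 1888 lower in input, and pairs from 392 to 693 for the fold change of enrichment and 0 to 92 for input. Values that changed sign ranged from -0.43 to 0.15 for the enrichment of OPA1 probe b, -0.0012 to 0.052 for MIEF2 and -0.022 to 0.11 for MFN1 in RIP, and -0.12 to 0.22 for RIP/input of OPA1 probe a in miR-634 cells. Among probe pairs they ranged in input from -0.14 to 0.010 for MFF, -0.068 to 0.080 for MIEF1 probes a and b and -0.040 to 0.031 for YME1L1, and in RIP from -0.17 to 0.028 for OMA1.

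The replicate numbers were not shown to pair the arrays: the deviations of arrays with the same number correlated between -0.03 and 0.08. With a replicate block, 10 member probes were higher and 3 lower in fold change of enrichment, where 4161 and 7321 of all tested probes were. In input, 9 member probes were lower, where 1406 of all tested probes were, and 20 probe pairs differed, none of them of a member (0). The methods' t-test called 3667 probes higher and 5859 lower, members 10 and 3. After Benjamini-Hochberg adjustment it called 2973 and 4331, members 8 and 2. Above the dimmer XIAP probe lay 2532 probes. The number of member probes lower in input and higher in RIP varied across the fits that left out 1 array, and the share over all tested probes was not counted in them. Both counts were added after the data were seen. A slide block was not run, since there was 1 slide.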
